A study of Mus musculus with 4 samples.

Results

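The 33 genes described here encode the SREBP transcription factors, the proteins that control their cleavage, and the enzymes of cholesterol and fatty acid synthesis. They were chosen by name, as rows of the deposited count lists whose Ensembl identifiers carry these symbols in GENCODE mouse release M21 (GRCm38), and all 33 were found among the 55573 genes of each list. They comprised 5 regulators, 1 sterol transporter, 18 enzymes of sterol synthesis and 9 enzymes of fatty acid synthesis. The list was drawn up with earlier results of the same comparison known, so that its values are given as a description of these genes and support nothing beyond them. RNA was sequenced from tdTomato-positive cells enriched by fluorescence-activated cell sorting from the preoptic area (POA), labelled as basal telencephalon, of mouse embryos at E16. All embryos carried *Hmx3-Cre* and the *tdTomato* reporter, so that cells in which the *Hmx3* promoter had driven Cre were labelled. *Dnmt1* wild-type (WT) embryos were compared with embryos in which Cre deleted floxed exons of *Dnmt1* (KO). There were 2 libraries per genotype, from cells pooled over 12 WT and 6 KO embryos. The series labels call them biological replicates and the methods of the study call them technical duplicates, so that the p-values measure the spread between these libraries, which may be technical.

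SREBP proteins are made as precursors in the membrane of the endoplasmic reticulum, where SCAP binds them and INSIG proteins hold the complex back while sterols are plentiful. When sterols fall, the complex moves to the Golgi, proteases release the N-terminal domain, and this domain activates genes of lipid synthesis in the nucleus, together with NF-Y and Sp1. *Srebf2* encodes SREBP-2, which acts mainly on cholesterol synthesis, and *Srebf1* encodes SREBP-1a and SREBP-1c, of which the latter acts mainly on fatty acid synthesis and is itself induced by the oxysterol receptor LXR. Since the blood-brain barrier keeps out lipoproteins, the brain makes its own cholesterol, first in neurons and progenitors of the embryo and later mainly in astrocytes and oligodendrocytes.

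The libraries held 8075102 to 9995968 counts, and mitochondrial rRNA took 8.66% of the counts of WT replicate 1 and 1.51% to 2.32% of the others. At these depths 3 counts corresponded to 0.294 to 0.372 CPM (counts scaled to TMM library sizes and expressed as CPM by edgeR). The targeted gene *Dnmt1* had 385 and 447 CPM in WT and 283 and 281 CPM in KO, which is -0.56 on the log2 scale (standard error 0.14, adjusted p from edgeR = 0.0511). Its call depended on the processing, and it passed the threshold in 6 of 9 alternatives that use all 4 libraries. The deleted part is only a few exons, so that the gene count still includes reads of the others. *Hmx3* was detected with 604 to 919 counts per library, and the 9 preoptic and GABAergic neuron genes summed to 1474 to 1595 CPM in WT and 1242 to 1348 CPM in KO, with none of the 9 past the threshold (3 had an unadjusted p under 0.05 in edgeR). Over all genes tested, 7.33% were called higher and 0.57% lower in KO, and 22.7% had an unadjusted p under 0.05 in edgeR. Markers of astrocytes, oligodendrocytes and mural cells differed far more. All 12 astrocyte markers were higher in KO and summed to 243 to 252 CPM in WT and 4015 to 4227 CPM in KO, with 2 of them, *Aqp4* and *Gfap*, at 0 in WT replicate 1 and *Gfap* at 0 in both WT libraries. Of 11 oligodendrocyte markers 9 passed the threshold, all higher in KO, with sums of 151 to 168 CPM in WT and 634 to 664 CPM in KO, and *Opalin* was at 0 in both WT libraries. All 8 mural cell markers were higher in KO, with sums of 63.3 to 72.3 CPM in WT and 421 to 427 CPM in KO, and *Acta2* was at 0 in both WT libraries. Of these called markers, 3 astrocyte, 5 oligodendrocyte and 2 mural genes reached the test only with the counts of the KO libraries, so that their direction was fixed by the filter. In sorted pools such as these, a change in the number of cells of a type and a change in RNA per cell cannot be told apart. The part that these cells have in the values below was not tested.

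The promoters show letters that the choice of genes did not use. RefSeq promoters of GRCm38.p6, from 250 bases before to 50 bases after a start, were matched by symbol for 26 of the 33 genes, with 35 starts, and searched on both strands. *Stard4*, *Fdps*, *Fdft1*, *Sqle*, *Scd1*, *Scd2* and *Fads1* had no promoter in this collection and were not searched. The CCAAT box bound by NF-Y was present for 80.8% of these 26 genes and for 41.1% of all 27025 genes of the table. The Sp1 GC box GGGCGG was present for 84.6% of the 26 genes and 38.2% of all genes, and the E-box CACGTG for 19.2% and 8.09%. In these shares a gene counts when any of its starts matches. Per start, the shares were 62.9% and 37.4% for the CCAAT box, 74.3% and 35.7% for the GC box and 17.1% and 7.15% for the E-box. The sterol regulatory element TCACNCCAC was found for 1 of the 26 genes, *Hmgcs1*, and for 1.44% of all genes. Without its last base, a form chosen after the first search that contains every match of the longer one, TCACNCCA was found for *Hmgcs1*, *Msmo1* and *Srebf2*, or 11.5% of the 26 genes against 4.97% of all genes. A match describes letters only and is not a site shown to be bound. The 250 bases before the start are shown for *Hmgcs1*, the only one of the 26 genes with the full element. They are also shown for *Srebf1* and *Msmo1*, which passed the threshold in KO and were added after their values were seen. Capitals mark matches to the NF-Y box, the GC box and the sterol regulatory element on either strand, and all are written 5′ to 3′ on the strand of the gene.
*Hmgcs1*, chr13:119690101-119690350, plus strand: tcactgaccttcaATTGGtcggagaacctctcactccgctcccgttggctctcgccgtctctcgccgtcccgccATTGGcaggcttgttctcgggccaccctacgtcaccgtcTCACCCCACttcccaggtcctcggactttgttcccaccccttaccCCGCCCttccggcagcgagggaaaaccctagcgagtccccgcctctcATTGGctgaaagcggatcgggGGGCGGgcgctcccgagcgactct
*Msmo1*, chr8:64733579-64733828, minus strand: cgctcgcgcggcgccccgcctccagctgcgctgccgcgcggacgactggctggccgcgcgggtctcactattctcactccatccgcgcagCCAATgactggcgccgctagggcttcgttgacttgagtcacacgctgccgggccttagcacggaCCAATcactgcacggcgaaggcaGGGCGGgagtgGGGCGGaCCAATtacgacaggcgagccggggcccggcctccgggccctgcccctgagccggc
*Srebf1*, upstream start, chr11:60222582-60222831, minus strand: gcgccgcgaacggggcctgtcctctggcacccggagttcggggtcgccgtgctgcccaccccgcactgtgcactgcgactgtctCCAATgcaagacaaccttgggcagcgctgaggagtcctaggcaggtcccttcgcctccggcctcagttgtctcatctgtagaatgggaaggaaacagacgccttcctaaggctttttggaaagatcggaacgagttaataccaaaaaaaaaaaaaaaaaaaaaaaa
*Srebf1*, middle start, chr11:60220628-60220877, minus strand: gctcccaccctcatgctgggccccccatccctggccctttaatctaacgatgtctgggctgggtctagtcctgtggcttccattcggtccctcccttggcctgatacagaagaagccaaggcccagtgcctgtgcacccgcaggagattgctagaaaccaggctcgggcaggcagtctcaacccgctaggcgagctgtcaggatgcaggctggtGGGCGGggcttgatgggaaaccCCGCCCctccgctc
*Srebf1*, downstream start, chr11:60210472-60210721, minus strand: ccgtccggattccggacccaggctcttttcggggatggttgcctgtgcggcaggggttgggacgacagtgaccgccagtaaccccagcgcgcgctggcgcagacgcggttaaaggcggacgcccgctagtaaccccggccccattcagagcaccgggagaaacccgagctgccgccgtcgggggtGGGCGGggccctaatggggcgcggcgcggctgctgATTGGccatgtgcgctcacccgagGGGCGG

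In the bases shown, *Hmgcs1* held the element 137 bases before its start, with 3 CCAAT boxes on the opposite strand that began 237, 176 and 45 bases before the start, and 2 GC boxes. The 50 bases after the start, which are not shown, held 1 more of each. *Msmo1* held 3 CCAAT boxes, 2 GC boxes and the shorter TCACNCCA, 177 bases before its start, but not the full element. Again in the bases shown, the 3 starts of *Srebf1* differed, with 1 CCAAT box at the most upstream start, 2 GC boxes at the middle start, and 1 CCAAT box and 2 GC boxes at the most downstream start. The deposited counts are per gene, so that transcripts from these starts, which include the SREBP-1a and SREBP-1c forms, were not separated.

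Across all 33 genes, *Srebf1*, *Scd1* and *Msmo1* were higher in KO when the p from edgeR was adjusted over every tested gene and held to 0.05, and 0 genes were lower (8 of the 33 had an unadjusted p under 0.05, as did 22.7% of all genes tested, and DESeq2 called the same number, 3 higher and 0 lower). All 33 genes passed the filter on low counts, and would have done so on the WT libraries alone. The 3 called genes are 9.09% of the 33, beside 7.9% of the 16832 genes tested (7.33% higher and 0.57% lower in KO). The genotypes did not overlap in 18 of the 33 genes, 13 where the KO libraries were the higher ones and 5 where they were the lower ones, beside 53.5% of all genes tested (28.3% above and 25.2% below). The share called, and the share without overlap in either direction, were thus close to those of all genes. By direction, the 13 above and 5 below leaned further towards KO than over all genes, and this split was not tested. On the log2 scale the 33 genes had a median difference of 0.10, beside -0.03 for all genes tested. The number called was 5 without WT replicate 1 and 9 without WT replicate 2, when 21.3% and 23.3% of all genes were called, and was 2 without either KO library. These calls were not all higher in KO. Without WT replicate 1 *Acly* was lower (adjusted p from edgeR = 0.0144), and without WT replicate 2 *Hmgcs1*, *Cyp51* and *Elovl6* were lower (0.000662, 0.0323 and 0.0118 from edgeR). The other genes added in these fits, all higher in KO, were *Hsd17b7* without WT replicate 1 and *Mvd*, *Dhcr7* and *Fasn* without WT replicate 2. A 1-library genotype is assumed in these fits to vary like the other.

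**Figure D1:**
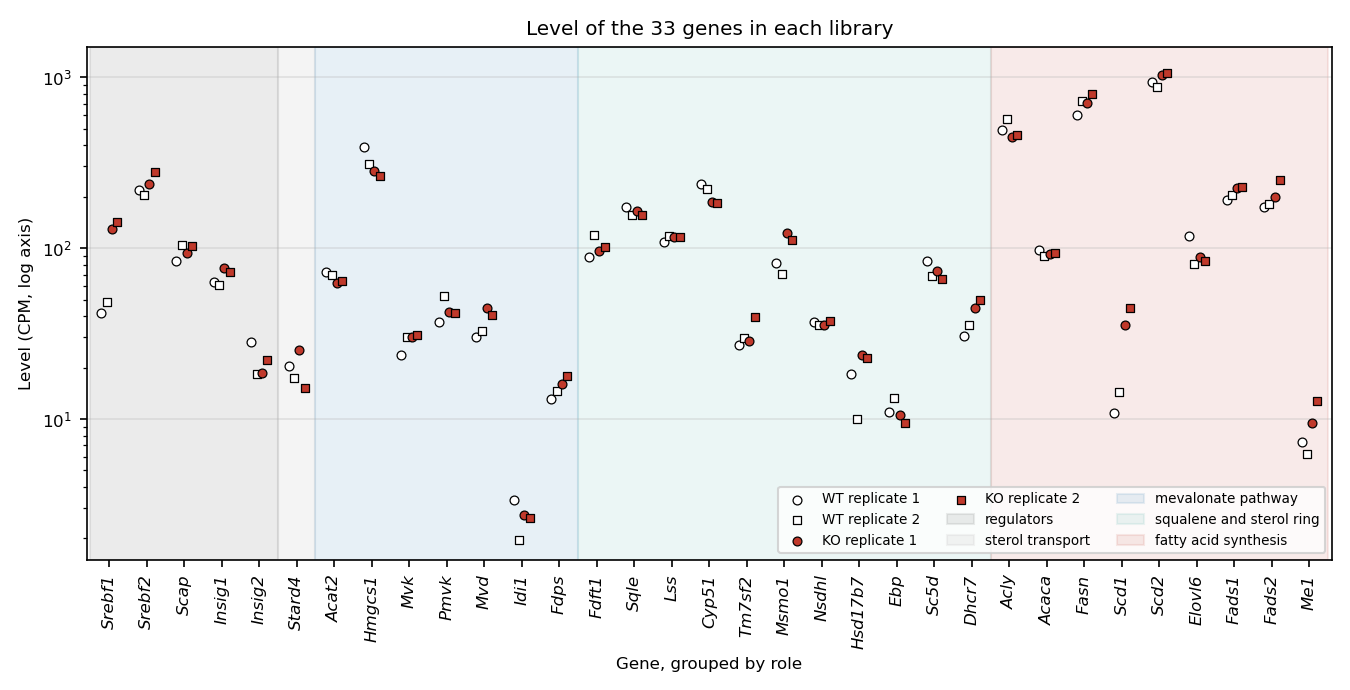
Level of each of the 33 genes in CPM on a log axis, with open symbols for the WT libraries and filled symbols for the KO libraries, circles for replicate 1 and squares for replicate 2. *Srebf1* and *Scd1* are the genes whose KO libraries lie furthest above the WT libraries, from 41.7 and 48.2 to 129 and 141 CPM and from 10.8 and 14.3 to 35.3 and 44.4 CPM.

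Among the regulators, *Srebf1* was the gene that changed. It spans positions 60199089 to 60222581 of chromosome 11 (GRCm38, minus strand) and was read 336 and 492 times in the WT libraries and 1081 and 1282 times in the KO libraries, or 41.7 and 48.2 CPM against 129 and 141 CPM. Both KO libraries were far above both WT libraries. The log2 fold change was 1.58 (standard error 0.16, 95% interval 1.22 to 1.94, adjusted p from edgeR = 0.000495), or 3.00-fold, and it was between 1.48 and 1.69 in all 13 alternatives, with a call in each. The gene *Rai1* overlaps 1.94% of its exonic bases on the opposite strand.

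*Srebf2*, the partner gene for cholesterol synthesis, had 219 and 206 CPM in WT and 238 and 278 CPM in KO. The KO libraries lay above the WT libraries, but the log2 fold change of 0.28 (95% interval -0.05 to 0.61) did not pass the threshold (adjusted p from edgeR = 0.294). The ratio of *Srebf1* to *Srebf2* counts was 19.0% and 23.5% in WT and 54.0% and 50.9% in KO. The difference of their log2 ratios was 1.31, with the smallest p that 2 against 2 libraries allow in an exact two-sided permutation test (0.333). Any ratio without overlap between genotypes reaches this p, as did *Insig1* to *Insig2* with a difference of 0.43, so that it shows separation only.

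The genes that hold SREBPs back or escort them did not pass the threshold. *Scap*, the escort, had 84.5 and 104 CPM in WT and 94.0 and 103 CPM in KO, and a log2 fold change of 0.06 (95% interval -0.31 to 0.44). The noncoding gene *5830462I19Rik* overlaps 13.2% of the exonic bases of *Scap* on the opposite strand. *Insig1*, a retention factor that is itself a target of SREBPs, had 63.3 and 60.9 CPM in WT and 76.0 and 72.8 CPM in KO. Its KO libraries were above its WT libraries, with a log2 fold change of 0.26 (95% interval -0.06 to 0.58, adjusted p from edgeR = 0.315). *Insig2* overlapped between genotypes, with 28.3 and 18.4 CPM in WT and 18.7 and 22.03 CPM in KO. *Stard4*, which carries sterols between membranes, also overlapped, with 20.4 and 17.4 CPM in WT and 25.4 and 15.2 CPM in KO.

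None of the 7 genes of the mevalonate pathway, which leads from acetyl-CoA to farnesyl diphosphate, passed the threshold (1 had an unadjusted p under 0.05). On the log2 scale their differences lay between -0.35 and 0.43, with 4 above and 3 below 0. *Hmgcs1*, which makes HMG-CoA and was the most abundant of the 7 per length of exon, had 389 and 312 CPM in WT and 284 and 265 CPM in KO. Both KO libraries of *Hmgcs1* were below both WT libraries, at a log2 fold change of -0.35 (95% interval -0.71 to 0.00382, adjusted p from edgeR = 0.225), and *Gm48342* overlaps 12.1% of its exonic bases on the opposite strand. *Acat2*, the cytosolic thiolase that starts the pathway, was likewise lower in both KO libraries, with 72.2 and 69.9 CPM in WT and 62.7 and 63.8 CPM in KO (adjusted p from edgeR = 0.516).

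*Mvd*, the decarboxylase that makes isopentenyl diphosphate, went the other way, with 30.3 and 32.9 CPM in WT and 44.6 and 40.8 CPM in KO. Its log2 fold change was 0.43 (95% interval 0.06 to 0.81, adjusted p from edgeR = 0.165). *Fdps*, the farnesyl diphosphate synthase, had 13.0 and 14.6 CPM in WT and 15.9 and 17.95 CPM in KO, and *Gm43738* shares 26.7% of its exonic bases on the same strand. The kinase genes *Mvk* (log2 fold change 0.17) and *Pmvk* (-0.10) overlapped between genotypes. *Idi1*, the isomerase, was the least abundant of the 33 genes per length of exon, with 20 to 27 counts per library, and its interval of -1.09 to 1.15 on the log2 scale shows how little could be detected at this depth.

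Of the 11 genes that turn farnesyl diphosphate into squalene and then into cholesterol, *Msmo1* was higher in KO. *Msmo1* encodes the oxidase that starts the removal of the methyl groups at carbon 4 and lies on chromosome 8 from 64718139 to 64733792 on the minus strand. It was read 659 and 724 times in the WT libraries and 1034 and 1007 times in the KO libraries, or 81.8 and 70.9 CPM against 123 and 111 CPM, without overlap. The log2 fold change was 0.61 (standard error 0.15, 95% interval 0.26 to 0.97, adjusted p from edgeR = 0.0492). It stands just inside the threshold, and without KO replicate 1 the adjusted p from edgeR was 0.406 and without KO replicate 2 it was 0.215, at log2 fold changes of 0.55 and 0.69. It was called without WT replicate 1 (0.71) and without WT replicate 2 (0.50).

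*Hsd17b7* and *Dhcr7*, which act in the same branch, lay outside the threshold with KO above WT. *Hsd17b7*, the keto-steroid reductase that completes the demethylation begun by MSMO1, had 18.2 and 9.99 CPM in WT and 23.5 and 22.8 CPM in KO. Its log2 fold change was 0.72 (95% interval 0.05 to 1.40, adjusted p from edgeR = 0.193). It was 1.20 without WT replicate 1 and 0.33 without WT replicate 2. *Dhcr7*, the last enzyme of the Kandutsch-Russell branch, had 30.5 and 35.5 CPM in WT and 44.3 and 49.8 CPM in KO, at a log2 fold change of 0.51 (95% interval 0.12 to 0.90, adjusted p from edgeR = 0.118). When trends with length and GC were first removed, both passed in edgeR, with adjusted p-values of 0.0335 and 0.0294. That removal called 18.2% of all genes tested, against 7.9% without it.

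*Cyp51*, the lanosterol demethylase, was lower in both KO libraries, with 237 and 222 CPM in WT and 185 and 183 CPM in KO. Its log2 fold change of -0.32 (95% interval -0.63 to -0.01) did not pass the threshold (adjusted p from edgeR = 0.206). *Ebp*, the sterol isomerase, had 11.1 and 13.2 CPM in WT and 10.6 and 9.47 CPM in KO, also lower without passing. The other 6 genes overlapped between genotypes. Among them were *Sqle*, the squalene epoxidase, with 174 and 157 CPM in WT and 166 and 157 CPM in KO, and *Lss*, which closes the ring, with 108 and 118 CPM in WT and 116 and 117 CPM in KO. *Nsdhl*, which acts between MSMO1 and HSD17B7, had 37.0 and 35.6 CPM in WT and 35.3 and 37.2 CPM in KO, and its interval of -0.37 to 0.37 on the log2 scale bounds any change. *Fdft1* (-0.08), *Sc5d* (-0.13) and *Tm7sf2* (0.26) completed the group on the log2 scale. *Ctsb* overlaps 18.3% of the exonic bases of *Fdft1* on the opposite strand, and *Vps51* shares 12.1% of those of *Tm7sf2* on the same strand.

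**Figure D2:**
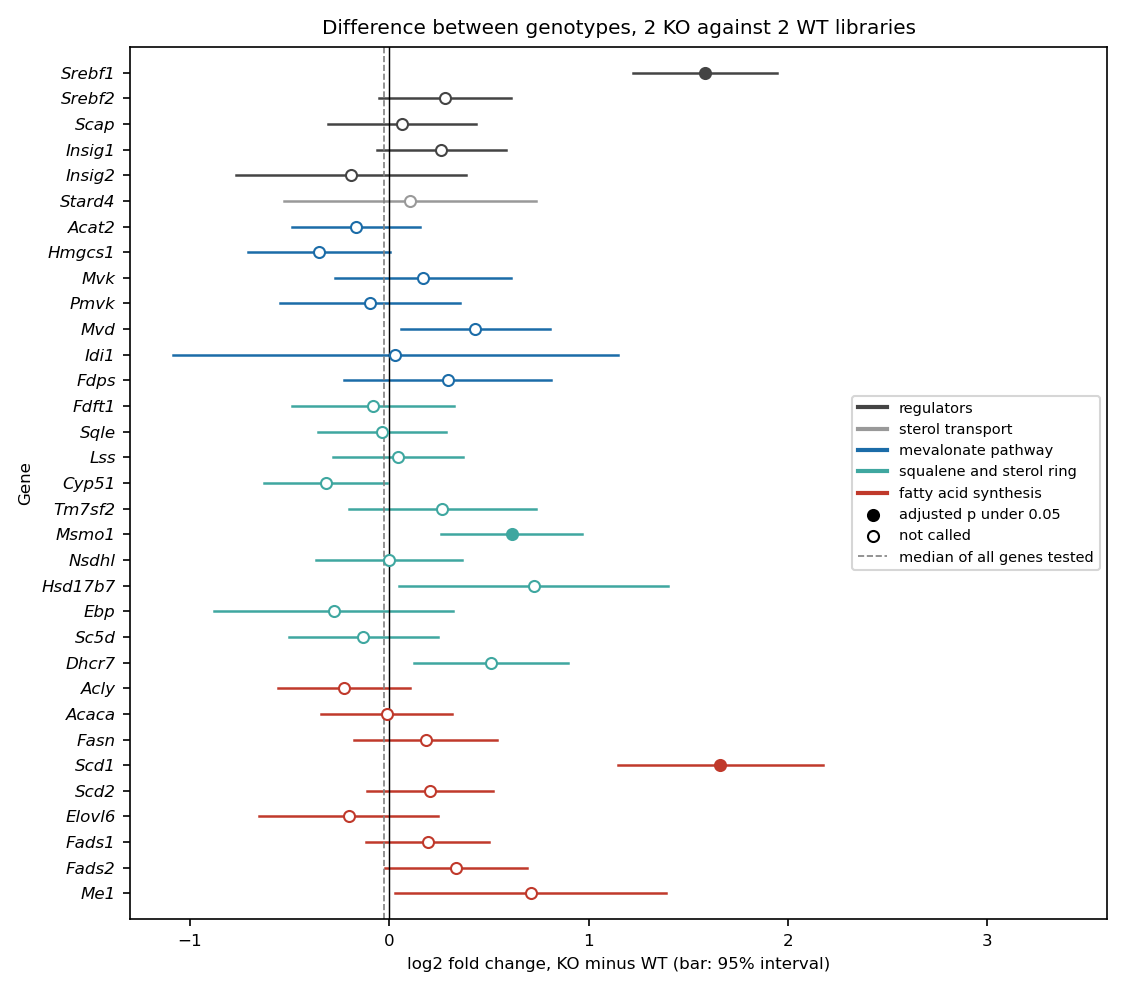
Log2 fold change (KO minus WT) of each gene with its 95% interval from the edgeR fit, coloured by role, with filled points for an adjusted p under 0.05. *Srebf1* at 1.58 and *Scd1* at 1.66 stand apart from the other 31 genes, which lie between -0.35 and 0.72, and the dashed line is the median of all genes tested at -0.03.

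Among the 9 genes of fatty acid synthesis, *Scd1* was higher in KO. *Scd1* encodes a desaturase that makes oleic and palmitoleic acid, and it lies on chromosome 19 from 44394455 to 44407879 on the minus strand. It was read 87 and 146 times in the WT libraries and 297 and 403 times in the KO libraries, or 10.8 and 14.3 CPM against 35.3 and 44.4 CPM. Both KO libraries were above both WT libraries, at a log2 fold change of 1.66 (standard error 0.22, 95% interval 1.15 to 2.17, adjusted p from edgeR = 0.00263), or 3.16-fold. It was called in all 13 alternatives, with a log2 fold change between 1.47 and 1.87.

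Its neighbour *Scd2*, the main desaturase of the developing brain, was the most abundant of the 33 genes per length of exon and did not pass the threshold. *Scd2* had 940 and 870 CPM in WT and 1024 and 1062 CPM in KO, at a log2 fold change of 0.21 (95% interval -0.11 to 0.52, adjusted p from edgeR = 0.418). *Scd1* counts were 1.15% and 1.64% of those of *Scd2* in WT and 3.45% and 4.18% in KO, so that *Scd2* supplied most of the desaturase reads in every library. The difference of the log2 ratios was 1.47 (exact two-sided permutation p = 0.333, the smallest possible, which again shows separation only). How reads shared by these similar genes were assigned is not given in the sources used here.

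The enzymes that build palmitate did not pass the threshold. *Acly*, which makes cytosolic acetyl-CoA for both pathways, was lower in both KO libraries, with 488 and 568 CPM in WT and 444 and 458 CPM in KO (log2 fold change -0.23, adjusted p from edgeR = 0.386). *Acaca*, the carboxylase of the committed step, had 98.1 and 90.1 CPM in WT and 92.5 and 93.9 CPM in KO, with an interval of -0.34 to 0.32 on the log2 scale. *Fasn*, the synthase, had 599 and 723 CPM in WT and 706 and 796 CPM in KO, and the genotypes overlapped (log2 fold change 0.18, adjusted p from edgeR = 0.526). *Me1*, the malic enzyme that supplies NADPH, had 7.32 and 6.27 CPM in WT and 9.51 and 12.7 CPM in KO (log2 fold change 0.71, 95% interval 0.03 to 1.39, adjusted p from edgeR = 0.203).

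The desaturases of polyunsaturated fatty acids were each above WT in both KO libraries without passing. *Fads1* had 192 and 204 CPM in WT and 224 and 228 CPM in KO (adjusted p from edgeR = 0.435), and *Fads2* had 174 and 182 CPM in WT and 199 and 248 CPM in KO (adjusted p from edgeR = 0.247). *Elovl6*, which elongates palmitate, had 118 and 80.9 CPM in WT and 88.7 and 83.6 CPM in KO, with both KO libraries between the WT libraries.

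Sterol and fatty acid genes were then set side by side. Of the 18 sterol enzymes 1 was higher and 0 were lower in KO, and of the 9 fatty acid enzymes 1 was higher and 0 were lower, beside 7.33% and 0.57% of all genes tested. Without WT replicate 2 the calls were 3 higher and 2 lower among the sterol enzymes and 2 higher and 1 lower among the fatty acid enzymes, beside 11.2% and 12.0% of all genes in that fit. Without WT replicate 1 they were 2 higher among the former and 1 higher and 1 lower among the latter, beside 14.2% and 7.15% of all genes, and without either KO library 0 sterol enzymes were called. The counts of genes with an unadjusted p under 0.05 were 5 of 18 and 2 of 9, beside 22.7% of all genes tested. The sterol enzymes had a median of 0.02 and the fatty acid enzymes a median of 0.19 for the log2 fold change, a difference of -0.18. Without WT replicate 2 the sterol median was 0.12 and the difference -0.11, and with the removal of length and GC trends the difference was also -0.11. KO was above WT without overlap in 5 sterol enzymes and below in 4, against 5 above and 1 below among the fatty acid enzymes, beside 28.3% above and 25.2% below over all genes tested. Summed over the 18 sterol enzymes the level was 1466 and 1394 CPM in WT and 1383 and 1357 CPM in KO. Over the 9 fatty acid enzymes it was 2626 and 2739 CPM in WT and 2823 and 3028 CPM in KO, where *Scd2*, *Fasn* and *Acly* carried most of the sum. The sums thus moved by little in either group, the sterol sum towards lower and the fatty acid sum towards higher values in KO, and no test was made of the difference between the groups.

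Per kilobase of exon, the levels of the 33 genes differed widely. *Scd2* came first with 166 CPM per kilobase in WT and 191 in KO, followed by *Acly* with 100.0 and 85.4, *Hmgcs1* with 76.3 and 59.8 and *Fasn* with 60.4 and 68.6. *Scd1* rose from 2.57 to 8.15 and *Srebf1* from 7.98 to 23.9 CPM per kilobase, so that *Srebf1* remained below *Srebf2* at 29.6 and 35.9. *Idi1* came last with 0.758 and 0.767.

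Lists of neighbouring lipid genes, drawn up with earlier results known like the members, gave the surroundings of the pathway. Of 70 genes in 5 lists, 69 were tested, 16 were higher in KO and 0 were lower, beside 7.33% and 0.57% of all genes. Without WT replicate 2 the split was 21 higher and 7 lower, and without WT replicate 1 it was 22 higher and 2 lower. In these fits 11.2% and 14.2% of all genes were called higher and 12.0% and 7.15% lower. Of the 69 genes, 24 had an unadjusted p under 0.05, beside 22.7% of all genes. Among the 16 are *Lcat*, *Thrsp*, *Pdk4* and *Ppara*, which passed the filter on low counts only through the KO libraries, and with at least 10 counts required in each library these 4 were not tested and 12 genes were called. The share called, 23.2% of the 69 genes, was above the 7.9% of all genes tested. Since the lists were drawn up with earlier results known, nothing particular to them can be read from these counts. None of the 7 genes for SREBP cleavage and sterol sensing passed (0 with an unadjusted p under 0.05) and none of the 9 genes of the isoprenoid branch did (1 with an unadjusted p under 0.05). The median log2 fold changes of these lists were -0.18 and -0.06.

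Among 17 tested genes of sterol transport, storage and LXR targets, 5 were higher in KO, *Lcat* among them, beside 7.33% of all genes, and the list had a median of 0.56 on the log2 scale. *Abca1*, the efflux pump induced by LXR, had 43.6 and 48.8 CPM in WT and 145 and 139 CPM in KO, or 1.62 on the log2 scale (adjusted p from edgeR = 0.000355). *Soat1*, which esterifies cholesterol for storage, had 37.0 and 29.98 CPM in WT and 82.6 and 72.0 CPM in KO (1.21, adjusted p from edgeR = 0.00348). *Lcat*, which esterifies cholesterol on lipoproteins and is made by astrocytes in the brain, had 4 and 22 counts for WT against 176 and 183 for KO. *Cyp46a1*, the cholesterol 24-hydroxylase, had 5.59 and 7.15 CPM in WT and 13.7 and 14.98 CPM in KO (1.16, adjusted p from edgeR = 0.0399), but did not pass without KO replicate 1 (0.0900, edgeR) or KO replicate 2 (0.214).

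Of 22 genes of fatty acid activation, elongation and glycerolipid assembly, 6 were higher in KO, *Thrsp* among them, beside 7.33% of all genes, and the median of the list was 0.16 on the log2 scale. *Thrsp*, a small regulator of lipogenesis, had 9 and 2 counts for WT against 113 and 131 for KO. *Acacb*, the mitochondrial carboxylase whose product limits fatty acid oxidation, had 1.37 and 2.25 CPM in WT and 11.5 and 12.2 CPM in KO, and its counts rose from 1.39% and 2.50% of those of *Acaca* to 12.5% and 13.0%. *Acsl3*, which activates long-chain fatty acids, had 91.0 and 70.7 CPM in WT and 246 and 214 CPM in KO (log2 fold change 1.51, adjusted p from edgeR = 0.00112). *Gpam*, which starts glycerolipid synthesis, had 68.6 and 85.3 CPM in WT and 193 and 198 CPM in KO (1.34, adjusted p from edgeR = 0.00136).

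Of 14 genes of fatty acid oxidation and ketogenesis, 5 were higher in KO, beside 7.33% of all genes, and the median of the list was 0.36 on the log2 scale. *Pdk4* and *Ppara* are among the 5. *Pdk4*, which restrains pyruvate oxidation, had 5 and 0 counts for WT against 69 and 99 for KO, and *Ppara*, the fatty acid receptor, had 1 and 4 counts for WT against 61 and 39 for KO. *Ppargc1a*, a coactivator of mitochondrial genes, had 5.71 and 6.96 CPM in WT and 21.3 and 23.2 CPM in KO (log2 fold change 1.81, adjusted p from edgeR = 0.00282). *Acadl*, a dehydrogenase of long-chain acyl-CoA, had 6.21 and 4.41 CPM in WT and 13.4 and 14.2 CPM in KO (1.39, adjusted p from edgeR = 0.0253, and 0.0763 without KO replicate 2).

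**Figure D3:**
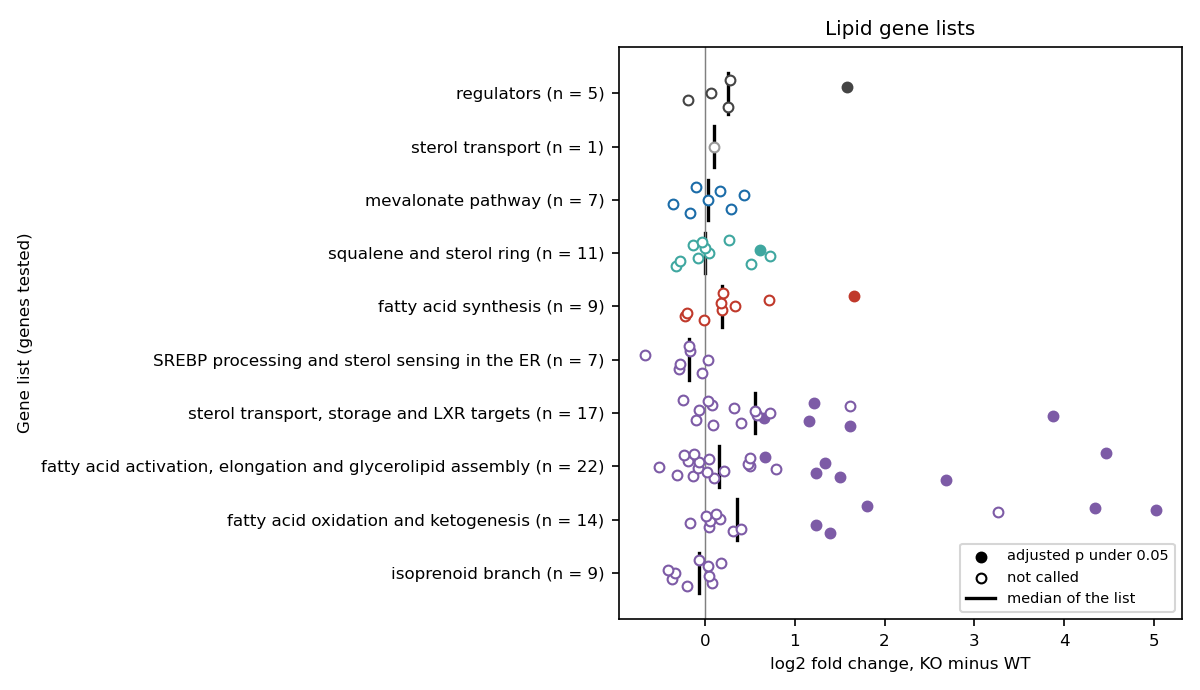
Log2 fold change (KO minus WT) of each tested gene in the 5 groups of the pathway and in 5 neighbouring lipid lists, with filled points for an edgeR adjusted p under 0.05 and a bar at the median of each list. Most points of the pathway groups lie near 0, and the called genes of the neighbouring lists lie to the right. The rightmost, *Pdk4* at 5.03, was tested only through its KO counts and moved between 3.90 and 9.46 when 1 library was left out.

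**Figure D4:**
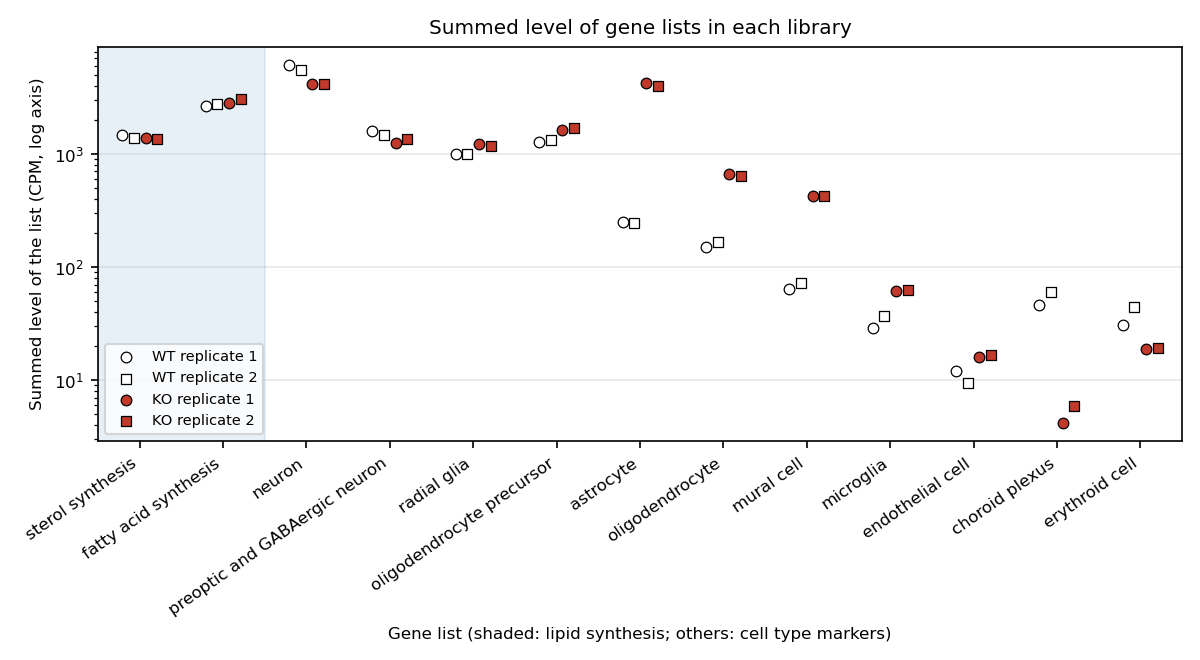
Summed level in CPM on a log axis of the sterol and fatty acid enzymes (shaded) and of the cell type marker lists in each library, with open symbols for WT and filled symbols for KO. The sterol sum stays between 1357 and 1466 CPM in all 4 libraries, while the astrocyte sum is 243 to 252 CPM in WT and 4015 to 4227 CPM in KO.

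The 8 neuron markers summed to 6120 and 5531 CPM in WT and 4184 and 4115 CPM in KO, and 2 of them were lower in KO. The 8 radial glia markers summed to 995 to 999 CPM in WT and 1166 to 1229 CPM in KO, and the 5 oligodendrocyte precursor markers to 1283 to 1339 and 1631 to 1707 CPM. In these lists 2 and 1 markers passed the threshold, all higher in KO, beside 7.33% of all genes. The choroid plexus list summed to 46.4 and 60.6 CPM in WT and to 4.16 and 5.95 CPM in KO, and *Ttr*, named after its values were seen, carried the difference with 40.8 and 55.3 CPM in WT and 0.951 and 1.10 CPM in KO. Microglial, endothelial and erythroid lists summed to 28.7 to 36.7, 9.41 to 12.0 and 30.8 to 44.7 CPM in WT and to 61.6 to 62.1, 15.9 to 16.7 and 18.9 to 19.2 CPM in KO. In the order microglia, endothelium, choroid plexus and erythroid cells, there were 1 of 7, 0 of 5, 1 of 3 and 1 of 5 tested genes past the threshold, beside 7.33% of all genes higher and 0.57% lower, higher for microglia and lower for the choroid plexus and erythroid lists. As *Srebf1*, *Scd1* and *Msmo1* differed between the same libraries as these lists, the 2 kinds of difference cannot be told apart by genotype.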

How the data were processed

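RNA-seq of 4 libraries was analysed, 2 per genotype. The deposited files hold raw counts of reads for each Ensembl gene, and the submitters' processing notes name CASAVA 1.8.2, STAR 2.5.2a, featureCounts 1.5.0-p1 and mm10/GRCm38, without roles, strand setting or annotation release. Without a strand setting, reads of antisense genes cannot be told apart. Of 55573 identifiers, 55394 matched GENCODE M21. Low genes were removed by filterByExpr, libraries were scaled by TMM and genotypes were compared with edgeR's quasi-likelihood test (edgeR 4.0.16, R 4.3.3), with genotype as the only term and Benjamini-Hochberg adjustment over 16832 genes. Standard errors came from the test statistic, and 95% intervals used the t distribution with its degrees of freedom. Intervals and floors cover these libraries only. CPM per kilobase used the union of annotated exons.

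The members and lists were chosen with earlier results of these data known. All 33 members are named, and of each neighbouring list the called genes, at most the 4 with the largest change. *Hmx3* is named as the driver of Cre, and the markers at 0 were named after their values were seen.

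Alternatives were DESeq2 1.42.0, other scalings and filters, a replicate block, removal of length and GC trends within libraries, a stricter threshold and leaving out each library. The procedures were tested on simulated counts.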

Additional observations from a re-analysis of the deposited data

How the results depend on the processing

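Of the 33 genes, *Srebf1*, *Scd1* and *Msmo1* passed the threshold in all 9 alternatives that use the 4 libraries and an adjusted p of 0.05. At an adjusted p under 0.01, *Srebf1* and *Scd1* passed, and the count of sterol enzymes was 0. Removing trends with length and GC (the correction) called 5 of the 33 genes and 3 sterol enzymes, adding *Hsd17b7* and *Dhcr7*. Over all genes, the number changed was 883 under a minimum of 10 counts per library, 2363 without a filter, 740 at an adjusted p under 0.01 and 3069 with the correction (1929 higher and 1140 lower, against 1233 and 96). Library size only moved the median of all genes from -0.03 to 0.08.

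Same-numbered libraries deviated together with a correlation of 0.137 across genes, and with 2 pairs the numbers are taken only as numbers. A replicate block gave 2244 changed genes (1625 higher and 619 lower), 3 of the 33 members were called, and *Dnmt1* had -0.56 (adjusted p = 0.0149). With the block and the correction together, 3711 genes changed, 6 members were called (3 sterol and 2 fatty acid enzymes, with *Me1* at an adjusted p of 0.0481), the sterol median was 0.039 and the difference of medians -0.11, and *Dnmt1* had -0.62 (adjusted p = 4.45e-07). The block alone gave a sterol median of 0.0219.

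The median of the sterol enzymes was 0.0080 with DESeq2 size factors, 0.0058 with DESeq2, 0.0538 with at least 10 counts in every library, 0.0383 with the correction, 0.13 with library size only, 0.0212 without a filter and 0.057 with the upper quartile. The median of the fatty acid enzymes was 0.30 with library size only, and the difference of medians was -0.11 with the correction. *Dnmt1* passed with DESeq2 size factors (-0.57, adjusted p = 0.0467), DESeq2 (-0.57), the correction (-0.62) and no filter (-0.55).

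Leaving out 1 library moved the number of changed genes between 951 and 4209, of members called between 2 and 9, of sterol enzymes between 0 and 5, of fatty acid enzymes between 1 and 3, of members without overlap between 20 and 32, of neighbouring lipid genes between 12 and 28 and of markers between 32 and 57. The sterol median lay between 0.0145 and 0.12, the difference of medians between -0.21 and -0.11, and *Dnmt1* between -0.67 and -0.46, with a call without either WT library. The split over all genes turned without WT replicate 2, with 2029 higher and 2180 lower, while 6 members were higher and 3 lower. Without WT replicate 1 it was 2578 higher and 1300 lower, with 4 members higher and 1 lower. WT replicate 2 gave the highest of these counts of calls when left out, and the cause was not tested. With 1 library in a genotype, a lack of overlap is easier to reach than with 2. The share without overlap over all genes was not computed for these fits, so that the rise from 18 members is no result about them.

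The sign of some genes that did not pass the threshold changed. With the correction *Scap* was -0.0088 (-0.0072 with the block) and *Sc5d* 0.0055 (0.0054 with the block). With library size only *Pmvk* was 0.0013, *Fdft1* 0.018, *Sqle* 0.0788 and *Acaca* 0.10. With the upper quartile *Sqle* was 0.0045 and *Acaca* 0.0276, under the minimum of 10 counts per library *Acaca* was 0.0232, and *Nsdhl* was -0.0083 with DESeq2 size factors and -0.0084 with DESeq2. Leaving out 1 library changed the sign of *Scap* (-0.0846 to 0.21), *Insig2* (-0.49 to 0.14), *Stard4* (-0.30 to 0.44), *Mvk* (-0.0033 to 0.35), *Pmvk* (-0.33 to 0.17), *Idi1* (-0.33 to 0.45), *Fdft1* (-0.29 to 0.14), *Sqle* (-0.12 to 0.0316), *Lss* (-0.0295 to 0.0992), *Nsdhl* (-0.0391 to 0.0504), *Sc5d* (-0.29 to 0.0184), *Acaca* (-0.084 to 0.041) and *Elovl6* (-0.46 to 0.0823). *Lcat*, *Thrsp*, *Pdk4* and *Ppara* were not tested with at least 10 counts in every library. Among the 33 members, depth limits *Idi1* most.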
